A study of Mus musculus with 192 samples.

Results

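The genes of 10 enzymes of the glycolytic pathway were followed at their transcription start sites in single mouse embryonic fibroblasts (MEFs). These were Hk2, Gpi1, Aldoa, Tpi1, Gapdh, Pgk1, Pgam1, Eno1, Pkm and Ldha, 10 of the 11673 genes with at least 1 tag in the data. A tag is a sequenced 5′ end of an RNA, and its position is taken here as where transcription began. Whether each tag is such a start was not tested. A tag counted for a member when it lay in a peak on the strand of the gene and the peak matched a start-site window named after that gene, no more than 1000 bp from an annotated RefSeq start. That rule took 170 of 136788 windows within this distance, of which 144 held a tag, and 1598 of 439958 peaks of the cells kept.

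MEFs are connective-tissue cells grown out from mouse embryos, here of strain C57BL/6 and cultured on plastic in DMEM with 10% serum. Interferon-beta (IFN-beta), the antiviral cytokine of the study, was given to each cell at 100 U/ml for 1 h. The labels divide the cells into 96 naive and 96 pretreated cells and do not say what the pretreatment was. They name no animal, culture or plate, so each group is 1 sample, group and library preparation cannot be told apart, and no difference below carries a test. Intervals are 95% intervals that cover the counting error of reads only, and the spread is given over cells. Because 1 RNA end can give several reads, they do not cover the counting error of RNA molecules.

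Glycolysis splits glucose into pyruvate in the cytosol and yields ATP and NADH. Hexokinase traps glucose as a phosphate, an isomerase and an aldolase prepare and split the sugar, and the steps from Gapdh to Pkm recover the energy. Lactate dehydrogenase then turns pyruvate into lactate and restores NAD+, and many of these genes are known targets of the hypoxia-inducible factor. Fibroblasts in culture use the pathway heavily, and Gapdh is widely used as a reference gene for expression.

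The promoters of the members whose tags lay closest to an annotated start are shown first, because the position of the main start is one of the features that differed between the groups. Each run spans 90 bases before to 20 bases from the RefSeq start, 5′ to 3′ on the strand of the gene, from RefSeq on GRCm38.p6. Several leading windows were centred farther downstream on mm9, outside the runs. Among them were those of Gpi1 (+50 bp in naive, +40 bp in pretreated cells), Pgk1 (+72 bp) and Ldha (+40 bp). In naive cells those of Hk2 (+25 bp) and Aldoa (+39 bp) lay outside too. The median tag of Ldha had the same position in both groups. Capitals mark GGGCGG (the GC box, bound by Sp1-type factors), ACGTG and GCGTG (the A and G forms of the core of the hypoxia element), on either strand. Hk2 (chr6:82774435-82774544, minus strand), Gpi1 (chr7:34230317-34230426, minus), Pgk1 (chrX:106187010-106187119, plus) and Ldha (chr7:46845714-46845823, plus) are shown at 1 start each; Eno1, with 1 start in mm9 and 3 in GRCm38, is left out. Aldoa has its most downstream start (chr7:126799159-126799268, minus) and its most upstream start (chr7:126800428-126800537, minus), the pair that shared nearly all of its tags.
Hk2: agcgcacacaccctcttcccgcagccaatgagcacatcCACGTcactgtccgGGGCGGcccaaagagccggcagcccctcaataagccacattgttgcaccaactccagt
Gpi1: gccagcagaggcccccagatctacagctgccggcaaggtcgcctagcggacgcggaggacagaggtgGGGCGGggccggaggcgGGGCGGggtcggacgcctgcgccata
Pgk1: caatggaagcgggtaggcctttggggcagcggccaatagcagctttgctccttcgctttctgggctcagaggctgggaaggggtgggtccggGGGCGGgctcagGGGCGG
Ldha: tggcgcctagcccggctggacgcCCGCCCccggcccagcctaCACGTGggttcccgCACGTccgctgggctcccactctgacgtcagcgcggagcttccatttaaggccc
Aldoa, downstream start: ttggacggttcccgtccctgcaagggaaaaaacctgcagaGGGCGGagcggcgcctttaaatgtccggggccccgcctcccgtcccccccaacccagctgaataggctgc
Aldoa, upstream start: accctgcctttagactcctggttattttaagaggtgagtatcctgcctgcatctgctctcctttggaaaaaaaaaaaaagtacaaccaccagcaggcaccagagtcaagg

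All 10 members matched the RefSeq promoter table, with 16 promoters of 300 bases, 250 before the start and 50 from it. GGGCGG occurred in 11 of the 16 (68.8%), from 9 members, and in 35.7% of all 32851 promoters of the same length. ACGTG occurred in 8 of 16 (50%), from 7 members, against 19.6% of all. GCGTG occurred in 7 of 16 (43.8%), from 4 members, against 32.4%. Promoters of 1 gene can overlap and share a match, as those of Eno1 that start 27 bp apart do. At least 1 of these 2 cores was present in 12 of the 16 (75%), from 8 members, and in 43.8% of all promoters. TATAAA was in none of the 16 and in 13.6% of all. The median GC content was 65% for the member promoters and 52.7% for all. The Ldha run holds overlapping ACGTG matches on both strands in its CACGTG, and the upstream Aldoa run holds none of the motifs. A match is a run of letters and not a measured binding site.

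Of all cells, 92 naive and 85 pretreated cells passed a minimum of 10% of the median total tags. Totals ran from 305066 to 3857034 tags (median 2305628) in naive cells and from 502374 to 13174313 (median 2650490) in pretreated cells, and listed peaks held 90.1% and 84.6% of the tags. Levels are given as CPM, the tags of a gene per 1000000 tags that the rule above assigned to any gene. A peak had to reach 200 tags per 10000000 to be listed in a file, so a gene listed at 0 may still be transcribed. All 10 fibroblast markers had tags, and their summed level ran from 548 to 7535 CPM in naive cells (median 2627) and from 969 to 7616 CPM (median 3164) in pretreated cells. Among them Vim was listed in 92 naive and 84 pretreated cells, but Thy1 was listed in 1 cell, Dcn in 4 and Pdgfra in 16. Leukocyte and endothelial markers had a median of 0 CPM in both groups and epithelial markers were listed nowhere. Of 6 interferon-response genes, 5 passed the filter and all 5 were higher in pretreated cells, among them Bst2 (log2 ratio 5.25) and B2m (3.02), as were 59.5% of the genes that passed. The sixth, Isg15, stood at 9.80 and 7.17 CPM and did not pass. Bst2 (49.2 and 1872 CPM) reached the level of the filter only through the pretreated cells, a group in which it had to be high.

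Together the 10 genes made up a smaller part of the transcript starts in pretreated cells. They held 1552394 of 110188951 gene tags in naive cells, or 1.41% (exact binomial interval 1.407% to 1.411%), and 1873065 of 174850419, or 1.07% (1.070% to 1.073%), in pretreated cells. Over single cells this share ran from 0.311% to 2.48% with a median of 1.34% in naive cells, and from 0.153% to 2.25% with a median of 1.11% in pretreated cells. The ranges of the groups therefore overlap over most of their length. On the log2 scale the pretreated share was lower by 0.40 (log2 ratio -0.40, counting interval -0.40 to -0.39). The value depended on the most abundant members: without Gapdh the ratio was 0.02, and without both Gapdh and Pkm the other 8 together stood at -0.55.

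By gene, 9 members were lower in pretreated cells, Ldha among them by less than its counting error, and Pkm was higher. Their median log2 ratio was -0.82, beside 0.21 for the 3038 genes that passed a filter: a level of 50 CPM or more in naive or pretreated cells, and a listing in 20% or more of the naive or the pretreated cells. Of these 3038 genes 40.5% were lower and 59.5% were higher. Hk2, Gpi1, Gapdh and Pgam1, 4 of 10, were more than 2-fold lower, as were 383 genes in all (12.6%). No member was more than 2-fold higher, a size reached by 640 genes (21.1%). With median-of-ratios scaling, which moves every ratio down by 0.21, these counts over all genes became 477 higher and 476 lower, and Tpi1 (-1.16) passed 2-fold as well. All 10 members passed the filter, but Gpi1 and Pgam1 passed its level only through the naive cells. The interquartile range of the 3038 genes was -0.43 to 0.88, and Aldoa, Pkm and Ldha fell inside that span.

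**Figure D1:**
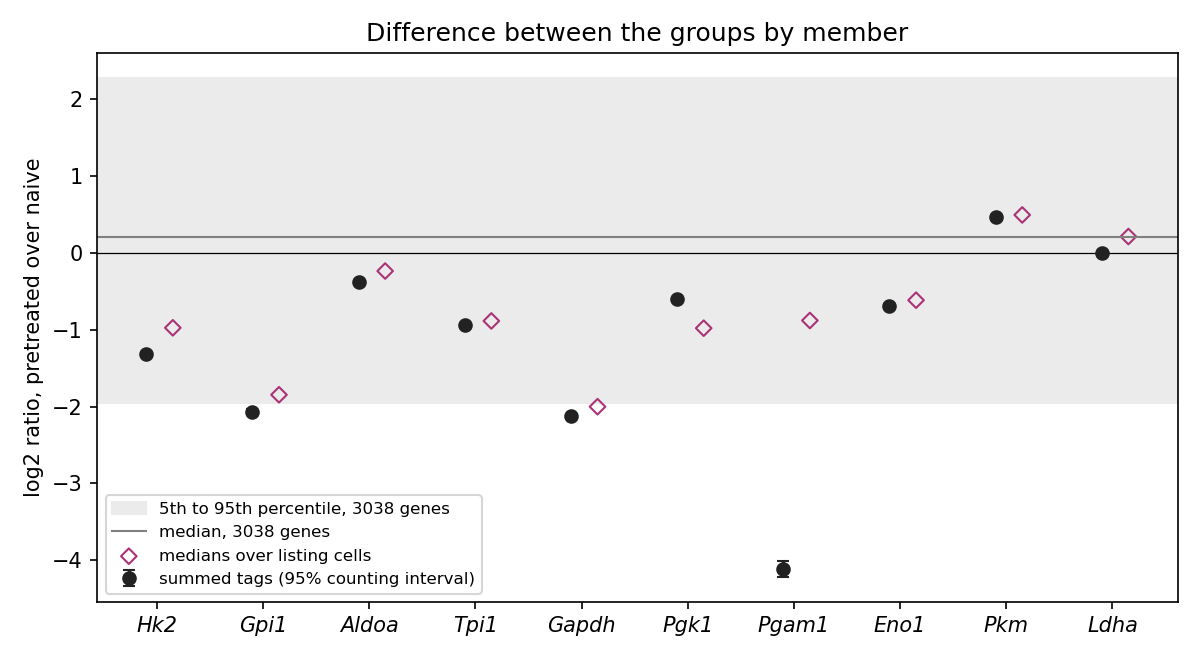
Log2 ratio of pretreated over naive cells for each member, in pathway order. Filled points are ratios of summed tags with their 95% counting interval, mostly narrower than the point; open diamonds are ratios of the median CPM over listing cells. The band spans the 5th to 95th percentile of 3038 genes (-1.95 to 2.28) and the grey line their median of 0.21; Gpi1, Gapdh and Pgam1 lie below the band by summed tags and Pkm alone lies above the line by summed tags.

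Hk2 encodes hexokinase 2, which phosphorylates glucose and commits it to the cell. It was listed in 87 of 92 naive cells at a median over all cells of 305 CPM (0 to 2896), and in 72 of 85 pretreated cells at a median of 154 CPM (0 to 495). Summed over cells the levels were 436 and 176 CPM (log2 ratio -1.31, -1.33 to -1.29). The highest values belonged to naive cells, of which 31 lay above the highest pretreated cell. Below it the 2 groups overlapped, and 14 pretreated cells exceeded the naive median.

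Gpi1 encodes glucose-6-phosphate isomerase, which converts glucose 6-phosphate into fructose 6-phosphate. It was listed in 58 naive cells (63%, exact interval 52.3% to 72.9%) and in 44 pretreated cells (51.8%, 40.7% to 62.7%). Its median was 111 CPM (0 to 1148) in naive and 31.2 CPM (0 to 294) in pretreated cells. The summed levels were 191 and 45.7 CPM, a log2 ratio of -2.07 (-2.10 to -2.03). In the cells that listed the gene the median was 237 CPM in naive against 65.8 CPM in pretreated cells, so the difference also lay in the level per listing cell. A processed pseudogene with 98.7% identity to Gpi1, Gm1840, held 3468 naive and 7071 pretreated tags, and with those added the log2 ratio of Gpi1 was -1.37. With windows at any distance it was -1.29.

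Aldoa encodes aldolase A, which splits fructose 1,6-bisphosphate into a pair of triose phosphates. All but 1 cell in each group listed it, at a median of 1186 CPM (0 to 3812) in naive and 1023 CPM (0 to 2622) in pretreated cells. The log2 ratio of the summed levels, 1419 and 1091 CPM, was -0.38 (-0.39 to -0.37). Most cells of both groups covered the same range, with 10 naive cells above every pretreated cell and 33 pretreated cells above the naive median.

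Tpi1 encodes triose-phosphate isomerase, which interconverts the products of aldolase. Peaks of Tpi1 were listed in 89 naive and 83 pretreated cells, at medians of 928 CPM (0 to 3126) and 517 CPM (0 to 1339). Its summed level was 1023 CPM in naive and 532 CPM in pretreated cells (log2 ratio -0.94, -0.96 to -0.93). In naive cells, 25 exceeded every pretreated cell, and 5 pretreated cells exceeded the naive median.

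Gapdh encodes glyceraldehyde-3-phosphate dehydrogenase, which makes the NADH of the pathway, and it separated the groups most clearly. Every cell listed it. Naive cells ran from 785 to 8800 CPM with a median of 4094 CPM, and pretreated cells from 296 to 2531 CPM with a median of 1022 CPM. No pretreated cell reached the naive median, 79 of 92 naive cells lay above the highest pretreated cell, and 23 pretreated cells lay below the lowest naive cell. The summed levels were 4596 and 1055 CPM, a 4.36-fold lower level in pretreated cells (log2 ratio -2.12, -2.13 to -2.12), and 4.31% of the 3038 genes had a lower ratio. Gapdh ranked 12th of all genes by level in naive cells and 146th in pretreated cells. In naive cells its CPM had a Spearman rho of 0.46 with the total tags of the cell, and in pretreated cells 0.10; the part of depth in the difference was not tested. Gapdh has 182 transcripts of other genes or pseudogenes with at least 90% identity over 400 bases, and adding their 27436 naive and 18800 pretreated tags gave a log2 ratio of -2.06.

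Pgk1 encodes phosphoglycerate kinase 1, which makes the first ATP of the pathway, and it lies on the X chromosome. In each group 83 cells listed it, at medians of 476 CPM (0 to 3315) in naive and 266 CPM (0 to 1313) in pretreated cells. Its summed levels were 577 and 381 CPM (log2 ratio -0.60, -0.61 to -0.58). The groups overlapped widely, with 6 naive cells above all pretreated cells.

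Pgam1 encodes phosphoglycerate mutase 1 and was the least listed member. In naive cells 28 of 92 (30.4%, 21.3% to 40.9%) listed it, with a highest value of 640 CPM, and in pretreated cells 3 of 85 (3.53%, 0.734% to 9.97%), with a highest value of 261 CPM. The median over all cells was 0 CPM in both groups. The summed levels were 86 and 4.95 CPM, and the log2 ratio of -4.12 (-4.22 to -4.02) rests on 866 pretreated tags, of which 55.5% came from 1 cell.

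Eno1 encodes alpha-enolase, which makes phosphoenolpyruvate. It was listed in 71 naive and 71 pretreated cells, at medians of 136 CPM (0 to 1229) and 97.0 CPM (0 to 470). The summed levels were 217 and 134 CPM (log2 ratio -0.69, -0.72 to -0.67). Eno1b, a copy with 99.5% identity, held 16053 tags in 84 naive cells and 100 tags in 2 pretreated cells. How reads were divided between this pair is not given in the sources used here, and with all copies added the log2 ratio of Eno1 was -1.45, past 2-fold. It also passed 2-fold with windows at any distance (-1.10) and with an exact match of the window start (-1.23).

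Pkm encodes the muscle-type pyruvate kinase, which makes the final ATP of the pathway, and it was the only member at a higher level in pretreated cells by summed tags. Each cell listed it. Naive cells ran from 746 to 8918 CPM with a median of 4581 CPM, and pretreated cells from 525 to 17506 CPM with a median of 6460 CPM. The groups overlapped, although 11 pretreated cells lay above every naive cell and 67 of 85 lay above the naive median. The summed levels were 4515 and 6268 CPM (log2 ratio 0.47, 0.47 to 0.48), and 61.3% of the 3038 genes had a lower ratio than Pkm.

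Ldha encodes the A subunit of lactate dehydrogenase, which turns pyruvate into lactate. All 92 naive cells listed it, and 84 pretreated cells did, at medians of 915 CPM (59.8 to 2325) and 1053 CPM (0 to 2048). Summed levels were 1028 and 1025 CPM, and the log2 ratio of -0.004 (-0.015 to 0.007) had a counting interval that includes 0. Its sign changed in 5 of 14 alternative ways of processing, within -0.22 to 0.17.

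**Figure D2:**
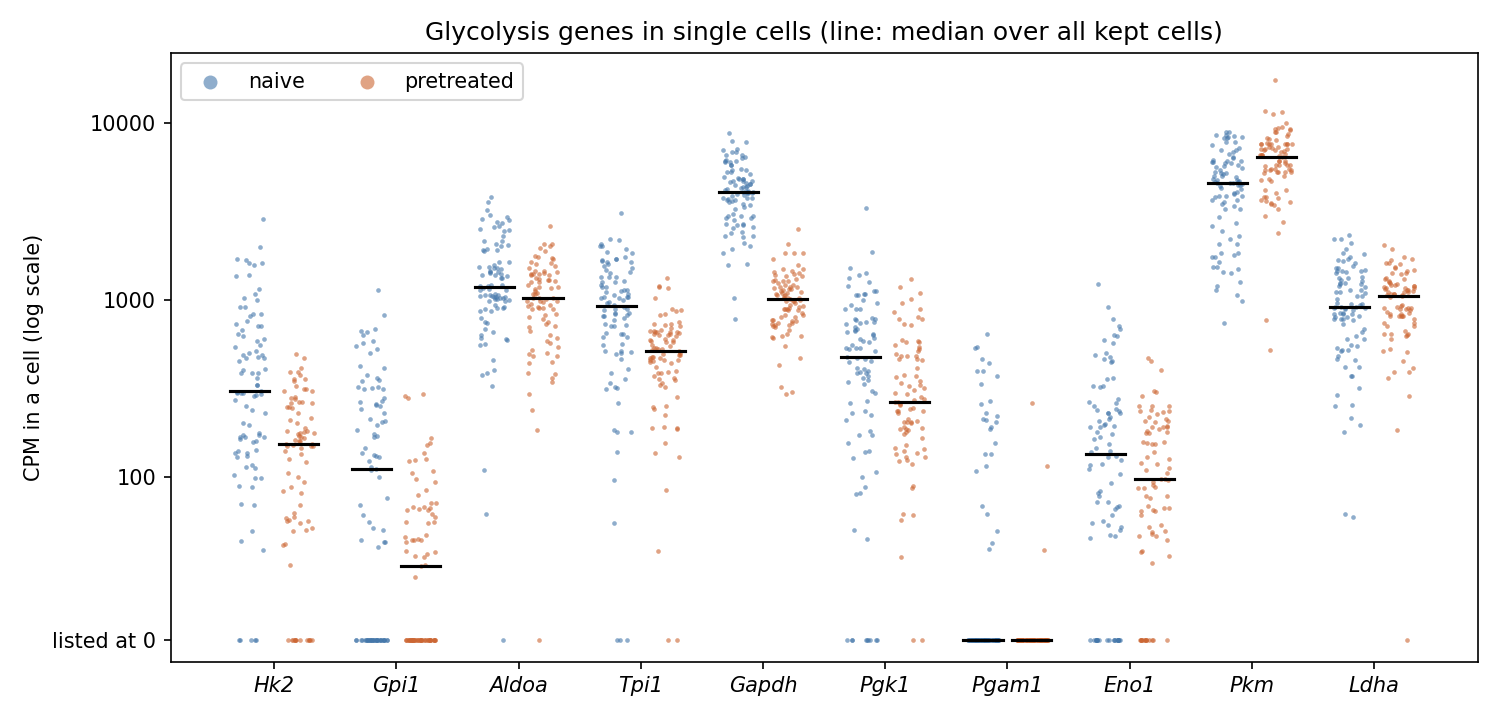
CPM of each member in each kept cell, on a log axis with cells that did not list the gene at the bottom; lines are medians over all kept cells (92 naive, 85 pretreated). Gapdh is the member whose groups separate most, with pretreated cells between 296 and 2531 CPM, and Pgam1 is listed at 0 in most cells of both groups.

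The 2 most abundant members were near balance in naive cells, and Pkm exceeded Gapdh in pretreated cells. Gapdh held 32.6% and Pkm 32.1% of the member tags in naive cells, against 9.85% and 58.5% in pretreated cells. Pkm had 0.983 tags per Gapdh tag in naive cells and 5.94 in pretreated cells. Within single cells, Pkm exceeded Gapdh in 46 of 92 naive and in 84 of 85 pretreated cells. A ratio of 2 genes of the same cell does not depend on the total used for scaling.

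The order of the levels by summed CPM was Gapdh, Pkm, Aldoa, Ldha, Tpi1, Pgk1, Hk2, Eno1, Gpi1 and Pgam1 in naive cells. A tag is read from the 5′ end of an RNA, so no division by gene length was made, although 1 RNA end can give several reads. The interquartile ranges over cells overlapped for each pair of neighbours in that order except Pkm (2699 to 6040 CPM) and Aldoa (906 to 1910 CPM). In pretreated cells the order was Pkm, Aldoa, Gapdh, Ldha, Tpi1, Pgk1, Hk2, Eno1, Gpi1 and Pgam1. Here these ranges did not overlap between Pkm (5063 to 7659 CPM) and Aldoa (701 to 1402 CPM), nor between Ldha (746 to 1227 CPM) and Tpi1 (363 to 659 CPM). Gapdh (770 to 1247 CPM), Aldoa and Ldha could not be ordered beyond the spread of the pretreated cells.

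A naive cell listed a median of 9 of the 10 members (4 to 10) and a pretreated cell a median of 8 (3 to 10). All 10 were listed in 13 naive cells and in 1 pretreated cell. The share of cells that listed a member was lowest for Pgam1 and Gpi1 in both groups.

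**Figure D3:**
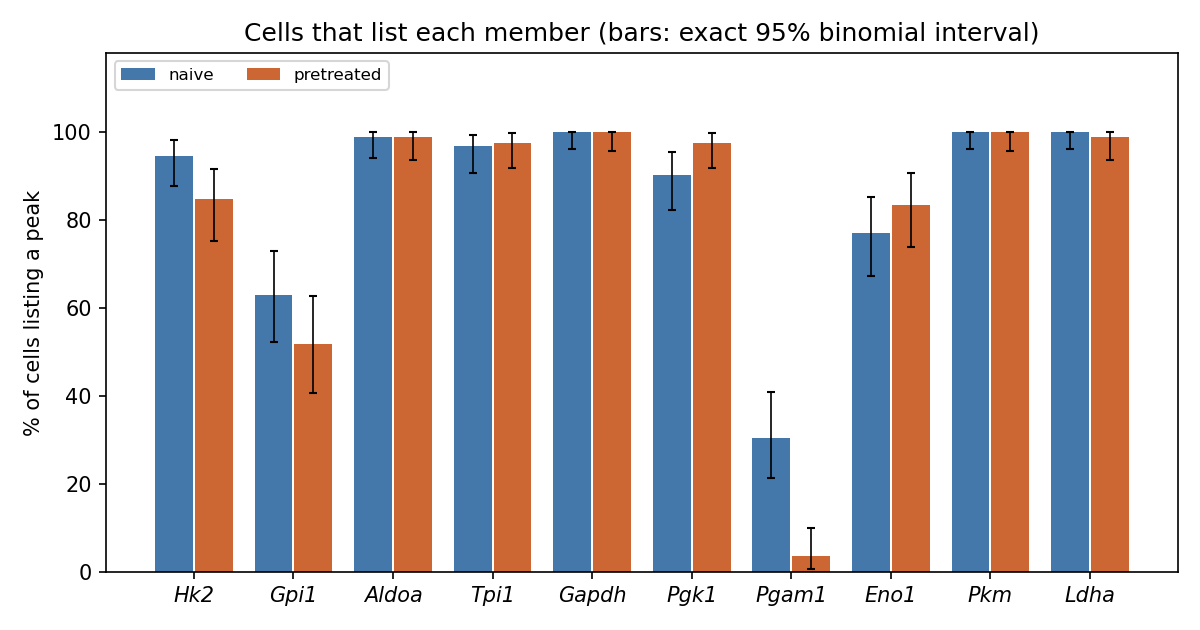
Percent of kept cells that listed a peak of each member, by group, with exact 95% binomial intervals. Gapdh and Pkm are listed in every cell, and Pgam1 in 30.4% of naive and 3.53% of pretreated cells; the intervals cover counting error within 1 sample per group.

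The main start position also differed between the groups for some members. HOMER centres each 150 bp peak on its highest position and keeps peaks of a cell at least 300 bp apart, so the window a cell lists shows where its main start lay and takes in tags nearby. Positions are distances of the window centre from the nearest annotated RefSeq start, negative upstream, on mm9. The median tag lay at least 5 bp farther upstream in pretreated cells for 4 members (Aldoa, Pgam1, Gpi1 and Eno1) and farther downstream for none. The background was 3012 of the 3038 genes that passed the filter, those with at least 100 tags and at least 3 cells in each group. Of these, 28.4% lay upstream by this margin and 18.4% downstream. The other 6 members stayed within 4 bp, as did 53.2% of the background genes, whose median shift was 0 bp. With peaks that match a window start exactly, Tpi1 also lay upstream, by 6 bp (median tag at +143 bp in naive and +137 bp in pretreated cells).

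Aldoa showed the largest contrast in start position with broad support over cells. In naive cells 67.3% of its tags, from 57 cells, lay in windows centred 23 to 57 bp downstream of the start, led by chr7:133942579-133942728 at +39 bp with 38 cells. Another 34 naive cells had their main start at -7 to -2 bp, with 29.3% of tags. All 84 pretreated cells that listed Aldoa had a main start at -7 to -2 bp, with 95% of tags, led by chr7:133942625-133942774, and none listed the downstream windows. With an exact match, 52 naive and 0 pretreated cells had the downstream windows, and 33 naive and 76 of 78 pretreated cells those at -7 to -2 bp. The median tag lay 46 bp farther upstream in pretreated cells. These positions belong to the downstream start whose promoter is printed above, and the cluster at -7 to -2 bp falls inside that run. Both builds place the 3 Aldoa starts 76 and 1193 bp apart.

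The upstream Aldoa start was a minor source. Peaks for which it was the nearest start were listed in 18 naive cells with 3.14% of the tags and in 44 pretreated cells with 4.85%. Windows at -3 to +38 bp of it held 1.03% of naive and 0.701% of pretreated Aldoa tags, in 7 cells of each group. Most of the tags assigned to the upstream start lay 395 to 401 bp downstream of it, in 12 naive and 35 pretreated cells. The third start, between them, had 293 tags from 1 pretreated cell.

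Hk2 and Gpi1 kept their start region, and their tags were divided differently over its windows. The Hk2 window at +25 bp (chr6:82724349-82724498) held 59% of naive and 21.8% of pretreated tags, and the window at +17 bp held 13.6% and 36.5%. By cells, the window at +17 bp was the main start in 25 naive and 30 pretreated cells, and that at +25 bp in 28 and 8. For Gpi1 the window at +50 bp (chr7:35015231-35015380) held 77.2% of naive tags in 38 cells and 9.92% of pretreated tags in 8 cells. The window at +40 bp held 3.37% of naive tags in 2 cells and 31.5% of pretreated tags in 12 cells. The share of peaks that matched a window start exactly differed between the groups. It was 100% of naive and 68.1% of pretreated peaks for Hk2, and 87.9% and 65.9% for Gpi1. For Hk2 the median tag lay at +25 bp in naive and +21 bp in pretreated cells.

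Pgk1 mostly used 1 window in naive cells and several in pretreated cells. Its window at +72 bp (chrX:103382437-103382586) held 77.9% of naive tags in 58 cells and 25.2% of pretreated tags in 27 cells. The remaining pretreated tags lay mostly between +17 and +71 bp. For Eno1 the window at +27 bp (chr4:149611259-149611408) held 47% of naive and 19.4% of pretreated tags, and those at +22 and +19 bp held 14.1% and 7.43% of naive against 23.8% and 22.7% of pretreated tags. Pgam1 had 99.2% of its naive tags at +122 to +142 bp, in 27 cells, led by chr19:41986419-41986568. The 3 pretreated cells that listed Pgam1 had their starts at +15, +57 and +78 bp.

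Tpi1, Gapdh, Pkm and Ldha had their median tag at the same position in both groups, Tpi1 not so with the exact match. Gapdh held 99.8% of naive and 97.3% of pretreated tags in a single window 169 bp downstream of the annotated start, chr6:125115548-125115697, in the 5′ UTR of exon 1. Its other annotated start was listed in 2 naive cells, with 0.187% of the tags, and in 12 pretreated cells, with 2.10%. The leading Pkm window, chr9:59504310-59504459, lay 209 bp downstream of the annotated start, in the 5′ UTR of exon 1, with 85.6% of naive and 96.9% of pretreated tags. Ldha held 89.4% and 81.5% of its tags in chr7:54101140-54101289 at +40 bp and nearly all of the rest 2 bp upstream. Tpi1 divided its tags between windows at +137 bp (49.4% of naive, 71.1% of pretreated) and +143 bp (48.1% and 18.3%), which the deposited table annotates as the end of another transcript.

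**Figure D4:**
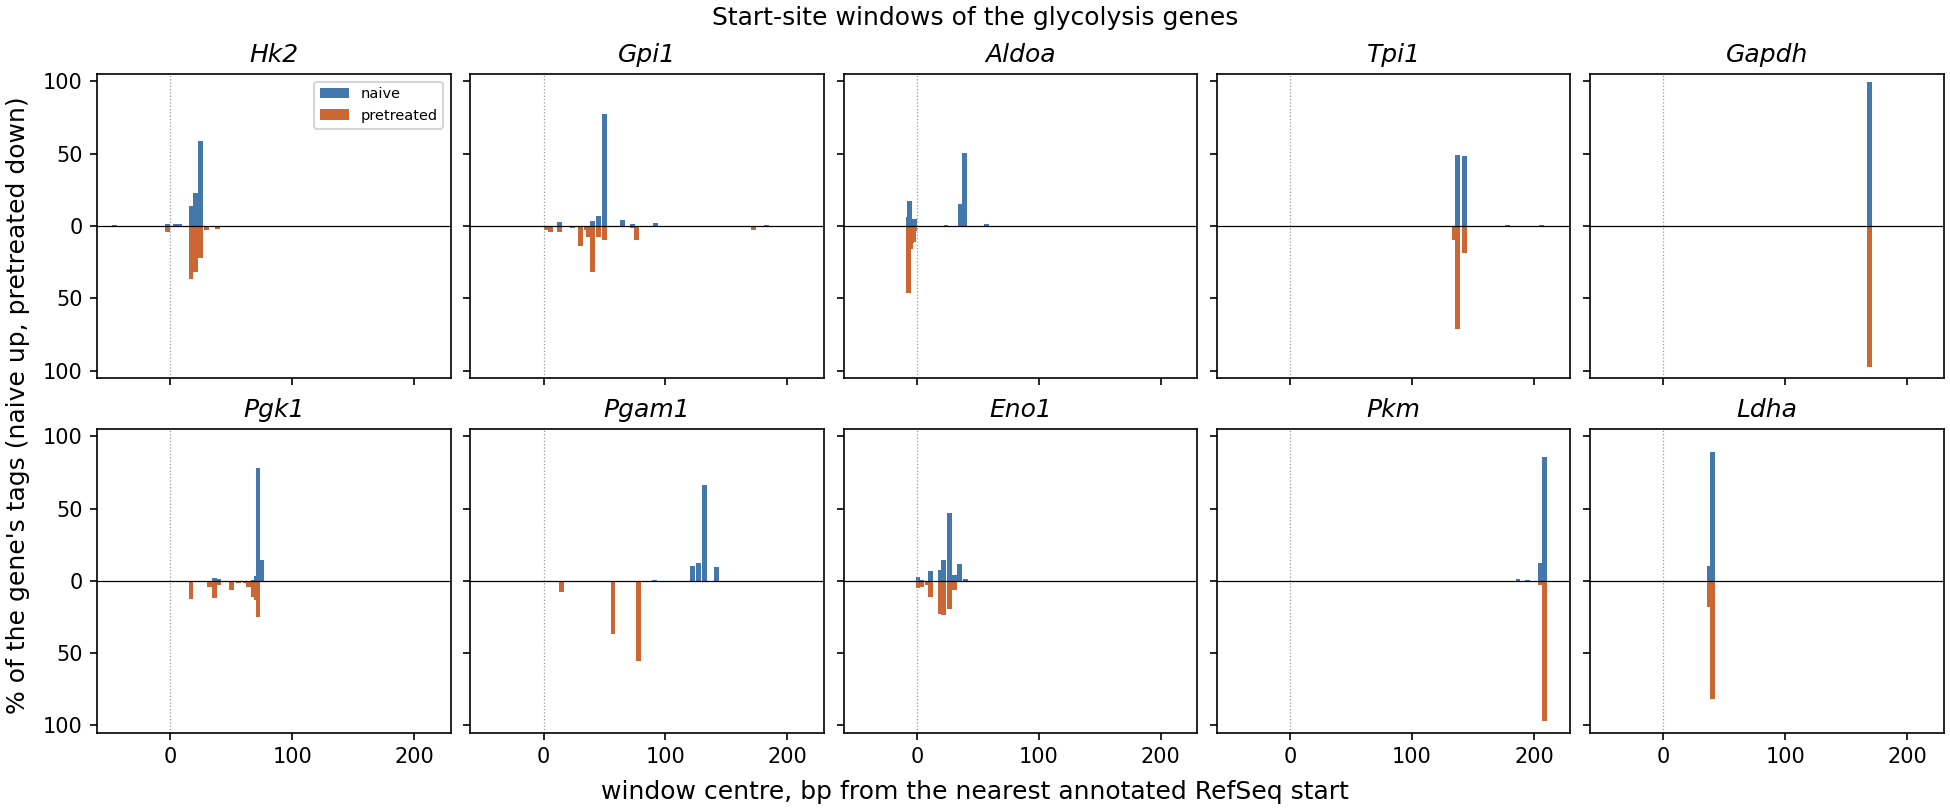
Percent of the tags of each member by window, as distance of the window centre from the nearest annotated RefSeq start, with naive cells drawn upward and pretreated cells downward; bars are 4 bp wide and can overlap, and windows outside -60 to 230 bp are not drawn. Aldoa has 50.6% of naive tags at +39 bp and none there in pretreated cells, while Gapdh, Pkm and Ldha keep 1 leading window.

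Peaks of the members were narrow in both groups. The focus ratio, a fraction from 0 to 1 that HOMER gives for the tags of a peak close to its main position, had a median of 0.984 over 816 naive member peaks and 0.957 over 782 pretreated ones. Over all genes the medians were 0.956 and 0.897. Gapdh was the sharpest in naive cells with a median of 1.00, and stood at 0.961 in pretreated cells. By median Gpi1 differed most, from 0.981 to 0.800, followed by Pgam1 with 0.979 and 0.818 in its 28 and 3 cells and by Tpi1 with 0.941 and 0.823. Pgk1 (0.998 and 0.990), Pkm (0.995 and 0.983) and Ldha (0.984 and 0.973) had high medians in both groups. Part of the Pgk1 peaks were nevertheless broad in pretreated cells, with a lower quartile of 0.710 against 0.994 in naive cells. Weighted by tags, the Pgk1 mean was 0.987 in naive and 0.798 in pretreated cells, and that of Gpi1 0.943 and 0.806. Peaks of 1 cell are not replicates of a condition, so this is a description.

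Across cells the members varied together only weakly. Over the 45 pairs of members, Spearman rho between per-cell CPM ranged from -0.28 (Hk2 and Ldha) to 0.39 (Gpi1 and Aldoa) with a median of 0.07 in 92 naive cells. In 85 pretreated cells it ranged from -0.16 (Gapdh and Pgk1) to 0.58 (Pkm and Ldha) with a median of 0.14. The pairs among Tpi1, Gapdh, Pkm and Ldha, chosen after their values were seen, had rho from 0.35 to 0.58 in pretreated and from 0.10 to 0.36 in naive cells. Pkm and Ldha, which sit on either side of pyruvate, had a rho of 0.10 in naive and 0.58 in pretreated cells. Cells of a group share their library preparation and each CPM of a cell shares 1 total. The difference in correlation was not tested. Among 606 other genes that 80% or more of the cells listed in each group, none reached a mean rho of 0.4 with the summed members, and none is named as alike.

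**Figure D5:**
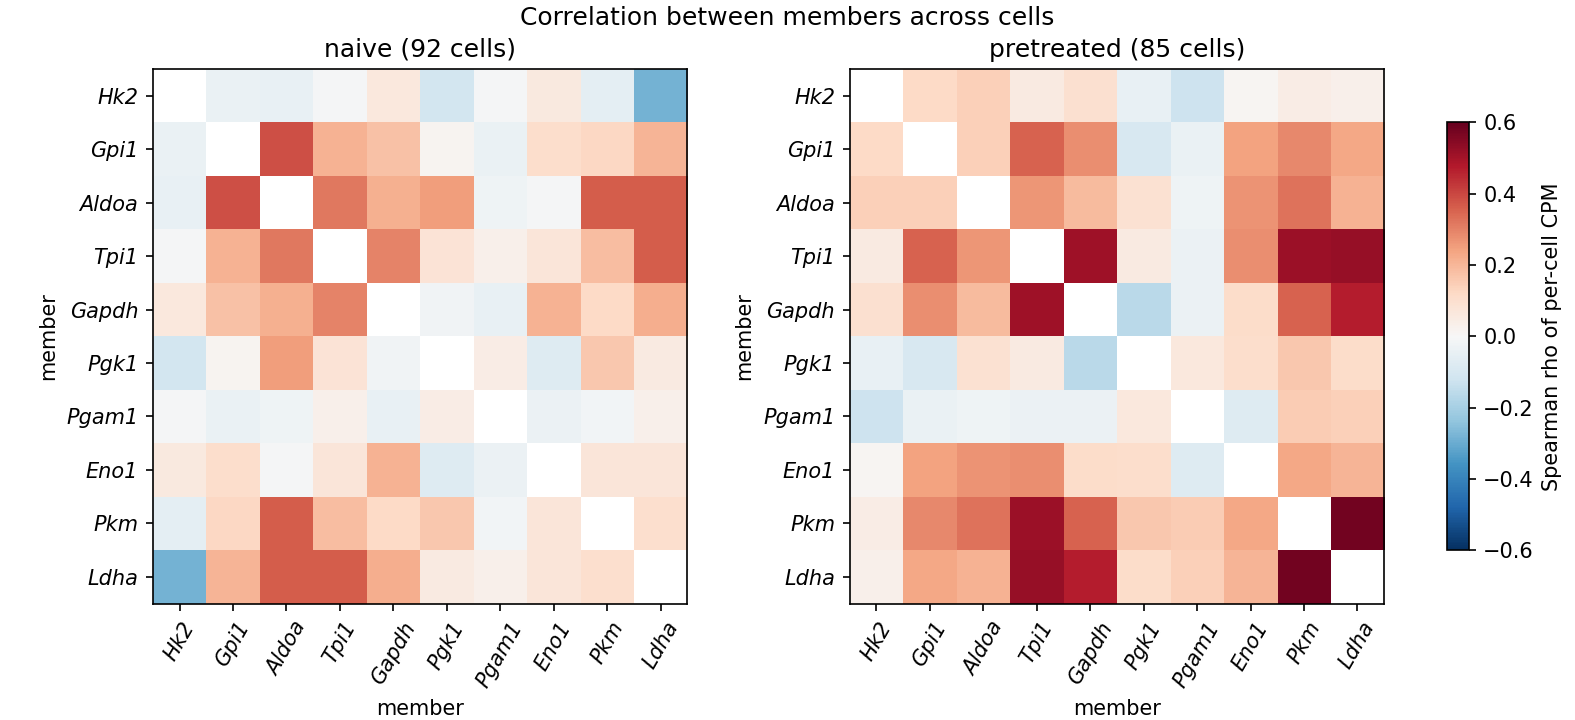
Spearman rho between the per-cell CPM of each pair of members, in 92 naive cells (left) and 85 pretreated cells (right), on 1 colour scale from -0.6 to 0.6. The highest value is 0.58 for Pkm and Ldha in pretreated cells, where naive cells have 0.10.

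Other genes of the pathway did not follow 1 direction. Of 17 other isozymes on a fixed list, 9 had tags in the RefSeq table and 3 passed the filter. Eno1b is on this list but is not named in that table, so it is outside these counts and is described with Eno1 above. Pfkl, the liver-type phosphofructokinase of the committed step, was higher in pretreated cells (84.5 and 275 CPM, log2 ratio 1.70, 51 and 73 cells). Ldhb, the B subunit of lactate dehydrogenase, was lower (336 and 76 CPM, -2.14, 77 and 55 cells), as was Eno3, the muscle-type enolase (207 and 111 CPM, -0.90). Ldha and Ldhb therefore had log2 ratios of -0.004 and -2.14. Of 7 genes for glucose and lactate transport, only Bsg passed the filter. Bsg encodes basigin, the partner of the lactate transporters, and was higher (1874 and 5153 CPM, 1.46, 91 and 85 cells). The glucose transporter gene Slc2a1 was listed in 1 naive and 11 pretreated cells and did not pass.

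A list of 15 genes joined regulators and side enzymes of glycolysis with genes at the branch into the mitochondrion. Of these 14 had tags and 3 passed, all 3 at the branch. Mpc1 (746 and 455 CPM, log2 ratio -0.71) and Mpc2 (294 and 296 CPM, 0.01), the subunits of the mitochondrial pyruvate carrier, differed from each other, and Pdha1, a subunit of pyruvate dehydrogenase, stood at -0.17. Pdk3, a kinase that inhibits that enzyme, was listed at 0 in naive cells and had 8404 tags from 28 pretreated cells, without passing the level of 50 CPM.

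The pentose phosphate branch, which leaves glycolysis at glucose 6-phosphate, had tags for all 7 genes, and the 4 that passed were all higher in pretreated cells. These were Pgls (7.96 and 99.1 CPM, log2 ratio 3.64), Rpe (46.7 and 98.5 CPM, 1.07), Tkt (47.3 and 70.3 CPM, 0.57) and Taldo1 (173 and 218 CPM, 0.34). Pgls, Rpe and Tkt passed only through the pretreated cells, a group in which they had to be high. The background share of genes higher in pretreated cells is 59.5%. Of 14 genes for the hypoxia factor and its other known targets, 3 passed: P4ha1 (0.26) and P4ha2 (0.73), subunits of the collagen prolyl hydroxylase, were higher, and Bnip3, a mitophagy receptor, was lower (279 and 133 CPM, -1.07). Hif1a itself was listed in 24 naive and 22 pretreated cells and did not pass.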

How the data were processed

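Single-cell start-site libraries of 192 cells were analysed from 1 peak file per cell and a table of start-site windows. The members and the gene lists were chosen with earlier results of these data known. Per the file headers, the authors called peaks with HOMER in each cell and on each strand, 150 bp wide and 300 bp apart, with at least 200 tags per 10000000, a 2-fold excess over the surrounding 10000 bp and a Poisson p of 1e-04 for that excess. The signal column gives, as deposited, tags per 10000000 of the header total. The focus ratio is a fraction from 0 to 1 as deposited. Bowtie2, HOMER and mm9 are named, without versions, in the submitters' processing notes; read filters and duplicate handling are not given in the sources used here. No molecular identifiers are mentioned, so a tag is a read.

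Tags were recovered as signal times total tags of the cell divided by 10000000, and all 1082504 peaks came out whole within 0.1 tag or the rounding of the file. Peaks were joined to windows starting within 2 bp. The deposited windows carry no strand, so the strand of 18312 of 18460 gene names (99.2%) came from RefSeq or GENCODE vM21. Ratios are log2 of pretreated over naive CPM with 0.5 tag added. Intervals are exact Poisson or exact binomial (Clopper-Pearson) at 95%. The calculation of the ratio was run on simulated data, where all 200 genes made 4-fold different among 2698 were recovered within 0.1. The simulated tags had counting error only and no minimum for listing a peak, and the median ratio was subtracted first. This run therefore checks the calculation and not its accuracy under the spread between these cells. Named genes are the members and the genes of the fixed lists that passed the filter; unfiltered genes named beside them were chosen after their values were seen. Near-identical copies were found with blastn 2.17.0 (90% identity, 400 bases) against GENCODE vM21 transcripts. 384 columns of unnamed per-cell values were not used. Alternatives changed the minimum of total tags, the scaling, the distance, strand and matching rules, the annotation, the filter and the pseudocount. Python 3.11.15, numpy 2.4.6, pandas 2.3.3 and scipy 1.17.1 were used.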

Additional observations from a re-analysis of the deposited data

Results flagged for a closer look

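Some tags of the members lie outside the counting rule. On the strand of the gene but beyond 1000 bp of a start there were 173117 naive and 94016 pretreated tags, 10.0% and 4.78% of all sense tags of the members. Pkm had the most, with 74749 naive tags in 92 cells and 30031 pretreated tags in 82 cells, of which 36234 and 23492 were annotated to the 3′ UTR, in 82 cells of each group. Eno1 had 36.3% of its naive sense tags there and 4.75% of its pretreated ones, while Gpi1 had 13.4% and 42.6%.

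Antisense tags within 1000 bp of a member start numbered 1440 in naive and 3862 in pretreated cells, from 8 and 13 cells. Aldoa held 1937 of the pretreated ones, from 6 cells.

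Near-identical copies of the members held 52027 naive and 28727 pretreated tags. Those of Eno1b lay in 84 naive and 2 pretreated cells. Gm12416, a processed Gapdh pseudogene, held 4737 tags in 51 naive cells and 0 tags in pretreated cells. The Gpi1 pseudogene Gm1840 went the other way, with 3468 tags in 18 naive and 7071 in 34 pretreated cells. The processed Gapdh pseudogene Gm8174 held 7441 tags in 46 naive and 10205 in 47 pretreated cells. Tags of copies are not scaled to the group totals of 110188951 naive and 174850419 pretreated gene tags. The higher pretreated count of Gm8174 is therefore not a higher level. How the aligner placed reads that match several copies was not tested.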

How the results depend on the processing

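The glycolysis share stayed lower in pretreated cells in all alternatives run. Its log2 ratio of -0.40 became -0.40 with a minimum of 25% of the median total, -0.23 with the header totals as denominator, -0.61 with median-of-ratios scaling, -0.45 with windows within 100 bp and -0.30 at any distance. It was -0.31 with an exact match of the window start, -0.39 with both strands, -0.35 as a mean over cells, -0.39 without the highest cell of each gene and -0.32 with GENCODE. After seeing the data, adding copies gave -0.42 and leaving out 16 pretreated cells deeper than the deepest naive cell gave -0.36.

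The median log2 ratio of the members (-0.82) was -0.65 with header totals, -1.03 with median-of-ratios scaling, -0.53 within 100 bp, -0.86 at any distance, -1.06 with the exact match, -0.77 without the highest cell, -0.91 with GENCODE and -1.13 with copies added. Median-of-ratios scaling moves all genes by 0.21, and with header totals the median of all genes is 0.38. Members higher in pretreated cells numbered 2 instead of 1 with header totals, within 100 bp, with the exact match, with both strands, as a mean over cells and without the highest cell. Within 100 bp the leading windows of Gapdh and Pgam1 are left out by construction, and their log2 ratios became 1.35 and 2.79; Tpi1 and Pkm have no tags there. Hk2 and Gpi1 stayed more than 2-fold lower in all 14 alternatives (Gpi1 from -2.61 to -1.29), and Eno1 passed 2-fold in 3. With an exact match the Aldoa window with most tags over both groups was the one at +39 bp, with 53.2% of naive and 0% of pretreated tags, and that of Gpi1 held 16.3% of pretreated tags. Without its highest cell Pgam1 stood at -5.07.

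Genes more than 2-fold lower numbered 245 with header totals and 183 with a minimum of 200 CPM, against 383; genes more than 2-fold higher numbered 1123 with 10 CPM and 187 with 200 CPM, against 640. Weighted by tags, the focus ratio of naive member peaks was 0.959. No paired analysis was possible because a cell number only names a cell and no result comes from a test. With 1 sample per group, the spread between cultures was not measured, and peaks under the minimum of the caller are not listed.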
